A study of Mus musculus with 80 samples.

Results

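The genes described here are those of ISG15 conjugation and deconjugation: Isg15, Uba7, Ube2l6, Herc6, Usp18 and Isg20. A gene was taken up when a probe set of the array, that is, a group of oligonucleotide probes read out as 1 value, carried its symbol as the only symbol in the supplied platform annotation, and a gene with several probe sets was read from the one with the highest mean over all 80 arrays. This found 5 of the 6 genes, and all 5 were among the 11406 genes tested. No probe set in that annotation names Isg15, so the transcript of ISG15 itself is not analysed here. Uba7 had 3 probe sets, and Ube2l6, Herc6, Usp18 and Isg20 had 1 each. The signals of Uba7, Ube2l6, Usp18 and Isg20 exceeded 4.28, the median log2 signal over the deposited table, in all 80 arrays, and the signal of Herc6 exceeded it in 42 of 80.

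ISG15 is a small protein related to ubiquitin that cells make in response to interferon. It is joined to other proteins in steps that resemble ubiquitination: Uba7 is its activating enzyme, Ube2l6 its conjugating enzyme, and Herc6 the main ligase in the mouse, where the human ligase HERC5 has no counterpart. Usp18 removes ISG15 from its targets and also binds the type I interferon receptor, where it dampens signalling. Isg20 is an interferon-induced exonuclease that degrades RNA, and it shares with ISG15 a name and an inducer, not a reaction.

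RNA of whole lung was measured on Affymetrix expression arrays in adult male mice of 4 strains that inhaled styrene, a solvent and monomer used to make plastics, or air for 6 h and were killed the next morning. The strains were C57Bl/6 WT, a CYP2F2 knockout lacking a mouse cytochrome P450 of the airway epithelium (KO), a CYP2F1 humanized line carrying the related human enzyme (TG) and the outbred stock CD-1, and the labels name KO and TG as C57Bl/6 mice too. Each strain was exposed to 0 (air), 10, 40 or 120 ppm styrene, with 5 biological replicates for each strain and dose, which gives 16 groups and 80 arrays. All mice were bought from one breeder, and the labels used here give neither the promoter of the human gene nor whether the humanized mice lack the mouse enzyme. The strain comparison addresses how the lung response to styrene depends on these enzymes.

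Transcription factors activated by interferon bind short sequence patterns, so the stretch of 250 bases before each gene's start was searched on both strands for GAAANNGAAA, the core of the interferon-stimulated response element, for the shorter AANNGAAA, the core that interferon regulatory factors bind, and for TTCNNNGAA, the gamma-activated site. RefSeq's promoter table for build GRCm38.p6 held such a stretch for 5 of the 6 genes, with 3 start sites for Isg20. The window of Isg15 held 3 overlapping matches of GAAANNGAAA, the first 78 bases before the start, against 2.98% of 32851 windows of this length in the table with any match. None of the windows of Herc6, Uba7, Ube2l6 and Isg20 held these letters. AANNGAAA, which is contained in the longer pattern, matched 4 times in the window of Isg15, of which 3 lie inside the longer matches, once in that of Uba7 and once in the first window of Isg20, and 21.3% of all windows held it. TTCNNNGAA, found in 7.02% of all windows, matched in the first window of Isg20 alone, 73 bases before the start. The 3 windows with a match of an interferon pattern are shown 5′ to 3′ on the strand of the gene, with the matches of GAAANNGAAA in capitals for Isg15 and those of AANNGAAA in capitals for the other two. They are chr4:156200819-156201068 on the minus strand for Isg15, chr9:107975317-107975566 on the plus strand for Uba7 and chr7:78913174-78913423 on the plus strand for Isg20. In Uba7 and Isg20 the capitals show AANNGAAA as it reads on the other strand. A match is a description of the letters in this window only.
Isg15: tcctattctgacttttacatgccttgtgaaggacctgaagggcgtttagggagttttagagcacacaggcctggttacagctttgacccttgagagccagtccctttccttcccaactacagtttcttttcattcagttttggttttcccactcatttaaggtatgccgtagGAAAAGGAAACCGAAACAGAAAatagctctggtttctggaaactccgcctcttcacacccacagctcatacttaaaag
Uba7: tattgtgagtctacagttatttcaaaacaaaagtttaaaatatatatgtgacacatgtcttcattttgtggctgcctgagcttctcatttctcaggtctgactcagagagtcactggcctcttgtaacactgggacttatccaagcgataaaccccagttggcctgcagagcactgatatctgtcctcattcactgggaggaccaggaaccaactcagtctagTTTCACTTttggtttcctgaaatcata
Isg20: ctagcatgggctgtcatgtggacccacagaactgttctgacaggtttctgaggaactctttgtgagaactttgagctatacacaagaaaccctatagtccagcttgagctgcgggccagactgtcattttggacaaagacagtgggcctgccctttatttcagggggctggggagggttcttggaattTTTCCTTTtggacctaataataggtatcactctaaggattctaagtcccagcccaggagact

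Arrays of the same group correlated over all probe sets at 0.978 to 0.9968. The median log2 signal of an array differed between strains, with WT at 4.53 to 4.60, KO at 4.09 to 4.20, TG at 3.84 to 4.14 and CD-1 at 4.24 to 4.30, and the sources used here do not say whether the strains were hybridised and normalized together. The lowest of these medians belonged to TG in air, replicate 4, followed by 4.07. The targeted gene Cyp2f2 read 13.20 to 13.27 in WT in air and 12.04 to 13.27 over all WT doses. Over all doses it read 11.51 to 11.89 in KO, 11.48 to 12.00 in TG and 12.50 to 13.14 in CD-1. On these deposited values its signal was lowest in KO and TG and still far above the floor of the array. With array medians subtracted, Cyp2f2 averaged 7.70 at 40 ppm in both TG and WT. Where its single probe set lies relative to the deleted part is unknown. Markers of lung tissue were high in every array, with alveolar type 2 genes at 12.8 to 13.9 and club cell genes at 11.5 to 13.9. In whole lung, fewer cells of a type and less RNA per cell cannot be told apart.

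In WT lung all 5 genes rose after styrene, at each of the 3 doses. Usp18 rose most, 5.68-fold at 10 ppm, 4.60-fold at 40 ppm and 5.06-fold at 120 ppm, followed by Herc6 at 3.41-fold, 2.41-fold and 2.45-fold. Isg20 rose 2.22-fold, 1.62-fold and 1.72-fold, Ube2l6 2.04-fold, 1.70-fold and 1.61-fold, and Uba7 1.70-fold, 1.43-fold and 1.45-fold. The genes thus included the activating enzyme, the conjugating enzyme, the ligase and the protease that reverses the modification. The 3 dose comparisons share the same 5 air arrays.

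Uba7, the activating enzyme, read 7.21, 7.21, 7.11, 7.17 and 7.09 in the 5 WT arrays in air. At 10 ppm it read 7.58, 8.03, 8.13, 7.99 and 7.90, at 40 ppm 7.66, 7.25, 7.59, 7.86 and 7.99, and at 120 ppm 7.77, 7.88, 7.56, 7.76 and 7.49. All 15 exposed arrays lay above every air array, and the nearest was replicate 2 at 40 ppm. The changes were 0.77 ± 0.12 (SE, log2; limma adjusted p = 0.000154) at 10 ppm, 0.52 (adjusted p = 0.00316) at 40 ppm and 0.54 (adjusted p = 0.00279) at 120 ppm.

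Ube2l6, the conjugating enzyme, read 5.93, 6.12, 5.43, 5.62 and 5.85 in WT in air. It read 6.66, 6.79, 7.12, 6.92 and 6.61 at 10 ppm, 6.44, 6.45, 6.38, 6.94 and 6.56 at 40 ppm and 6.50, 6.59, 6.11, 6.76 and 6.41 at 120 ppm. The groups were apart at 10 and 40 ppm, and at 120 ppm replicate 3 fell just inside the air range, so that 4 of 5 arrays lay above every air array. The change was 1.03 ± 0.14 (SE; limma adjusted p = 4.53e-05) at 10 ppm, 0.77 (adjusted p = 0.000646) at 40 ppm and 0.68 (adjusted p = 0.00169) at 120 ppm.

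Herc6, the ligase, read 5.25, 5.28, 4.89, 4.89 and 4.86 in WT in air, close to the median of the table. At 10 ppm the arrays read 6.22, 6.74, 7.38, 7.01 and 6.67, at 40 ppm 6.46, 5.62, 6.18, 6.71 and 6.56, and at 120 ppm 6.47, 6.44, 5.82, 6.78 and 6.13. Every exposed array was above every air array, with replicate 2 the lowest at 40 ppm and replicate 3 the lowest at 120 ppm. The change was 1.77 ± 0.21 (SE; limma adjusted p = 1.15e-05) at 10 ppm, 1.27 (adjusted p = 0.000305) at 40 ppm and 1.29 (adjusted p = 0.000284) at 120 ppm.

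Usp18, the protease that takes ISG15 off its targets, read 8.09, 8.12, 7.86, 7.89 and 7.68 in WT in air. It read 9.76, 10.47, 10.82, 10.60 and 10.53 at 10 ppm, 10.03, 9.60, 9.96, 10.36 and 10.69 at 40 ppm and 10.30, 10.41, 9.97, 10.63 and 10.02 at 120 ppm. The highest air array and the lowest exposed array, replicate 2 at 40 ppm, were more than 1 log2 unit apart. The change of 2.51 ± 0.19 (SE; limma adjusted p = 5.38e-08) at 10 ppm was the 21st largest rise among the genes tested. At 40 ppm it was 2.20 (adjusted p = 2.33e-07) and at 120 ppm 2.34 (adjusted p = 1.17e-07), the 23rd and 16th largest rises.

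Isg20, the exonuclease, read 8.81, 8.87, 8.72, 8.47 and 8.48 in WT in air. It read 9.52, 9.75, 10.16, 9.92 and 9.76 at 10 ppm, 9.29, 9.03, 9.18, 9.61 and 9.72 at 40 ppm and 9.52, 9.49, 9.38, 9.53 and 9.34 at 120 ppm. All exposed arrays lay above all air arrays, and the 10 ppm arrays were the highest as a group. The change was 1.15 ± 0.13 (SE; limma adjusted p = 3.51e-06) at 10 ppm, 0.70 (adjusted p = 0.000621) at 40 ppm and 0.78 (adjusted p = 0.000231) at 120 ppm.

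**Figure D1:**
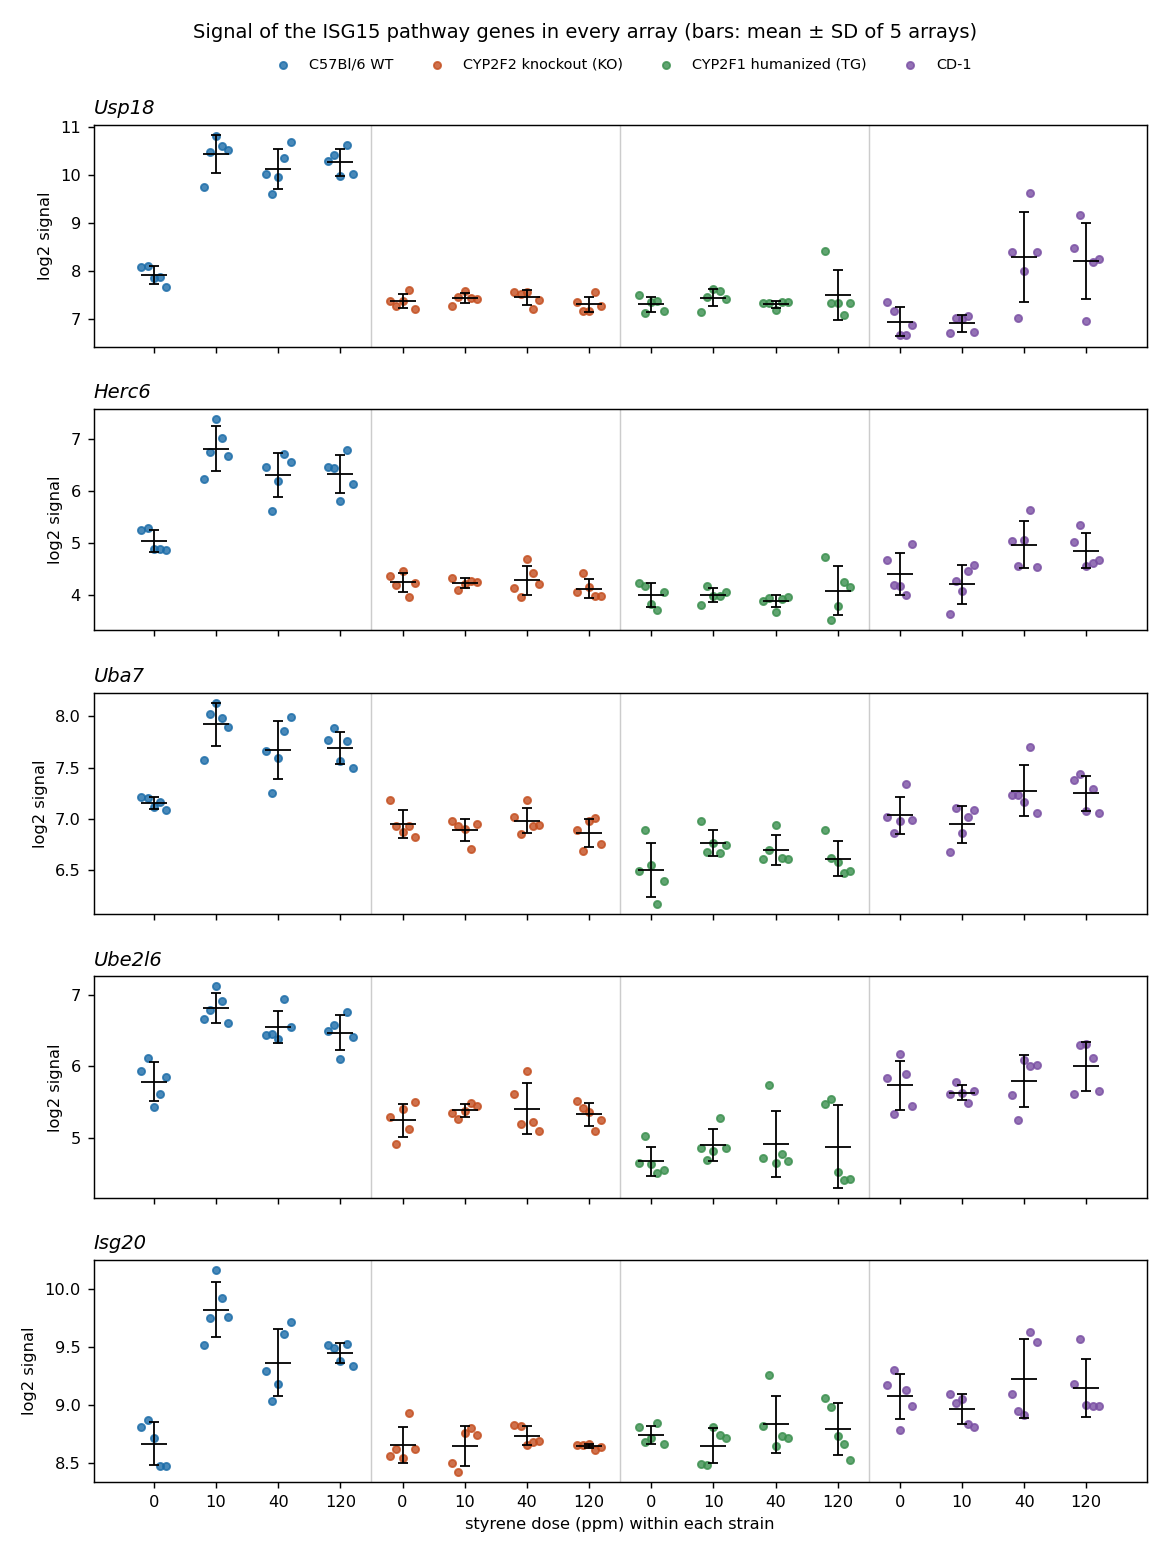
Deposited log2 signal (vertical axis) of Usp18, Herc6, Uba7, Ube2l6 and Isg20 in each of the 80 arrays, by strain and styrene dose in ppm (horizontal axis), with points for single arrays and bars for the mean ± SD of the 5 arrays of a group. The exposed WT arrays stand above the WT air arrays, except 1 array of Ube2l6 at 120 ppm, while KO and TG arrays overlap their air groups at every dose, and TG replicate 1 at 120 ppm stands apart with Usp18 at 8.42.

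All 5 genes were thus called higher (adjusted p under 0.05) at each dose in WT, where 7.67% of all tested genes were called higher at 10 ppm, 13.7% at 40 ppm and 14.3% at 120 ppm. Every exposed array lay above every air array for 5 of the 5 genes at 10 ppm, 5 at 40 ppm and 4 at 120 ppm, against 6.07%, 10.1% and 12.1% of all tested genes. The median change of the 5 genes was 1.15, 0.77 and 0.78 at the 3 doses, beside a median over all tested genes of 0.00, -0.01 and 0.01.

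**Figure D2:**
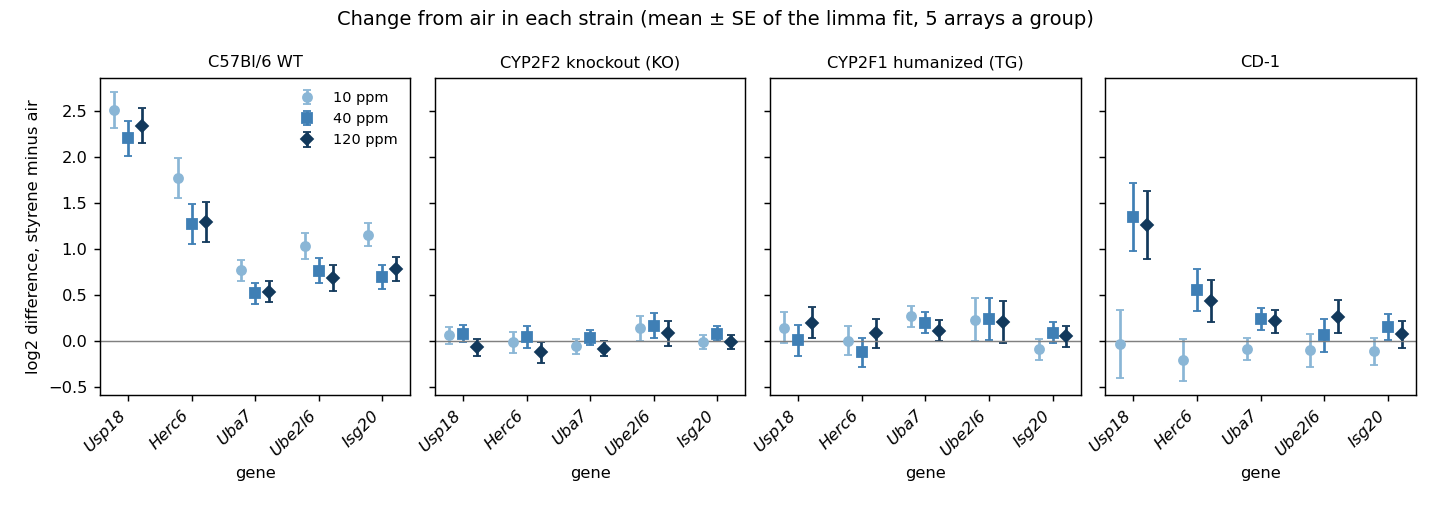
Change of each gene (horizontal axis) from the air group of its own strain (vertical axis, log2 difference) at 10, 40 and 120 ppm styrene, with bars for the standard error of the limma fit of 5 arrays a group. The WT values lie between 0.52 and 2.51 and the KO values between -0.12 and 0.16.

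Among the exposed WT groups, all 5 genes had their highest mean at 10 ppm, but 0 of 5 passed the test between any pair of doses, where 0.947% of all tested genes were called between 40 and 10 ppm, 0.903% between 120 and 10 ppm and 0% between 120 and 40 ppm. Isg20 was nearest to the threshold, at -0.46 ± 0.13 (SE; interval -0.72 to -0.19; limma adjusted p = 0.085) from 10 to 40 ppm. With all 80 arrays in 1 fit that difference passed the test (adjusted p = 0.0376), as it did without WT replicate 1 at 10 ppm (adjusted p = 0.0446) or WT replicate 5 at 40 ppm (adjusted p = 0.0331). From 10 to 40 ppm Herc6 differed by -0.50 ± 0.21 (interval -0.95 to -0.05), Usp18 by -0.31, Ube2l6 by -0.27 and Uba7 by -0.25. An unadjusted p under 0.05 was reached by 3 of the 5 genes from 10 to 40 ppm, 3 from 10 to 120 ppm and 0 from 40 to 120 ppm, and by 1748, 1533 and 839 of all tested genes. Between 40 and 120 ppm the 5 differences were -0.08 to 0.14.

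In KO lung none of the 5 genes passed the test at any dose, where 0% of all tested genes were called. Usp18 read 7.39, 7.28, 7.39, 7.62 and 7.22 in air, 7.29, 7.47, 7.58, 7.46 and 7.42 at 10 ppm, 7.57, 7.53, 7.58, 7.21 and 7.41 at 40 ppm and 7.37, 7.17, 7.18, 7.56 and 7.29 at 120 ppm. The 4 groups overlapped, and no exposed array lay above every air array. The 15 changes of the 5 genes lay between -0.12 (Herc6 at 120 ppm) and 0.16 (Ube2l6 at 40 ppm), with the lowest limma adjusted p at 0.958 and 0 of 5 genes at an unadjusted p under 0.05 at any dose. Of the intervals of these changes, the highest upper bound was 0.44, for Ube2l6 at 40 ppm, and Usp18 at 120 ppm had an interval of -0.26 to 0.12. Herc6 exceeded the median signal of the table in 1 or 2 of 5 arrays of each KO group, so its intervals rest on signals near the low end of the table and no lower bound is given for it. At an unadjusted p under 0.05, 649, 564 and 596 of all tested genes passed at 10, 40 and 120 ppm. Over all groups Uba7 read 6.68 to 7.19, Ube2l6 4.91 to 5.93, Herc6 3.97 to 4.70 and Isg20 8.43 to 8.93 in KO.

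In TG lung, too, 0 of the 5 genes passed the test at any dose, with 0%, 0% and 0.0701% of all tested genes called at 10, 40 and 120 ppm. Usp18 read 7.50, 7.14, 7.36, 7.38 and 7.18 in air, 7.16, 7.47, 7.62, 7.59 and 7.43 at 10 ppm, 7.34, 7.34, 7.19, 7.37 and 7.35 at 40 ppm and 8.42, 7.35, 7.35, 7.09 and 7.34 at 120 ppm. One array, replicate 1 at 120 ppm, stood apart from the rest. Herc6 in the same group read 4.74, 3.52, 3.80, 4.25 and 4.15, and replicate 1 was the highest there as well. The 15 changes of the 5 genes lay between -0.12 (Herc6 at 40 ppm) and 0.27 (Uba7 at 10 ppm; interval 0.03 to 0.50; limma adjusted p = 0.311). Uba7 read 6.49, 6.89, 6.55, 6.17 and 6.39 in air and 6.98, 6.68, 6.77, 6.67 and 6.75 at 10 ppm, so the groups overlapped through air replicate 2. At an unadjusted threshold of 0.05, 1, 0 and 0 of the 5 genes passed at 10, 40 and 120 ppm, beside 1579, 867 and 1439 of all tested genes. The highest upper bound of an interval was 0.72 (Ube2l6 at 40 ppm), and Herc6 exceeded the median signal of the table in 0 or 1 of 5 arrays of each TG group. Over all TG groups Ube2l6 read 4.41 to 5.74 and Isg20 8.48 to 9.26. Without TG air replicate 4, the array with the low median, 0 genes passed at any dose either, and the Uba7 change at 10 ppm was 0.18.

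In CD-1 lung the differences from air were -0.20 to -0.03 at 10 ppm, and at 40 and 120 ppm Usp18 read well above air in some mice, with a wide spread between animals. None of the 15 changes passed the test, where 0%, 0.00877% and 0.0175% of all tested genes were called at 10, 40 and 120 ppm. At an unadjusted threshold of 0.05, 0, 2 and 1 of the 5 genes passed, beside 272, 442 and 597 of all tested genes. Usp18 read 7.36, 7.17, 6.68, 6.67 and 6.88 in air and 6.73, 7.04, 7.01, 7.08 and 6.74 at 10 ppm. At 40 ppm it read 8.40, 7.04, 8.01, 9.63 and 8.40, and at 120 ppm 8.48, 9.16, 6.97, 8.19 and 8.26. At both higher doses 4 of 5 arrays lay above every air array, and the remaining one, replicate 2 at 40 ppm and replicate 3 at 120 ppm, lay inside the air range. The SD of Usp18 over the 5 arrays was 0.31 in air, 0.17 at 10 ppm, 0.93 at 40 ppm and 0.79 at 120 ppm. The Usp18 change was 1.34 ± 0.37 (SE; interval 0.57 to 2.12; limma adjusted p = 0.538) at 40 ppm and 1.26 ± 0.37 (interval 0.49 to 2.03; adjusted p = 0.464) at 120 ppm. With all 80 arrays in 1 fit, which pools the spread over the 4 strains, both passed the test (adjusted p = 0.000523 and 0.00112).

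The other genes of CD-1 had smaller differences from air. Herc6 read 4.68, 4.21, 4.19, 4.01 and 4.98 in air, 3.64, 4.27, 4.09, 4.47 and 4.58 at 10 ppm, 5.04, 4.57, 5.06, 5.64 and 4.55 at 40 ppm and 5.03, 5.35, 4.56, 4.63 and 4.68 at 120 ppm, changes of 0.56 and 0.44 at the higher doses. Air replicates 1 and 5 were the highest of their group, and 3 of 5 arrays at 40 ppm and 2 of 5 at 120 ppm lay above both. Uba7 read 7.02, 6.86, 6.98, 7.34 and 6.99 in air, 7.23, 7.23, 7.16, 7.70 and 7.06 at 40 ppm and 7.38, 7.44, 7.08, 7.29 and 7.06 at 120 ppm, changes of 0.24 and 0.21. Its groups overlapped, with 1 and 2 of 5 arrays above every air array. Isg20 read 9.17, 9.30, 8.78, 9.13 and 9.0 in air, 9.10, 8.95, 8.91, 9.64 and 9.55 at 40 ppm and 9.18, 9.57, 9.0, 8.99 and 8.99 at 120 ppm, changes of 0.15 and 0.07 in which 2 and 1 of 5 arrays lay above every air array. Ube2l6, which read 5.25 to 6.31 over all CD-1 groups, had differences of 0.06 and 0.26, with 0 and 2 such arrays. The same animals stood out for Usp18, Herc6, Uba7 and Isg20: replicate 4 at 40 ppm and replicate 2 at 120 ppm had the highest value of their group. For Ube2l6 replicate 3 was the highest at 40 ppm, at 6.10 against 6.01 in replicate 4. At 120 ppm replicates 2 and 3 both read 6.31, and replicate 3 was the animal whose Usp18 lay inside the air range. Between exposed doses 0 of 5 genes passed in CD-1, with Usp18 at 1.37 ± 0.37 from 10 to 40 ppm (limma adjusted p = 0.542) and 1.29 from 10 to 120 ppm (adjusted p = 0.41). Both of these differences passed with all 80 arrays in 1 fit (adjusted p = 0.000419 and 0.000741). That fit pools the spread over the 4 strains, with an SE of 0.24, so it does not measure the spread of CD-1 alone.

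**Figure D3:**
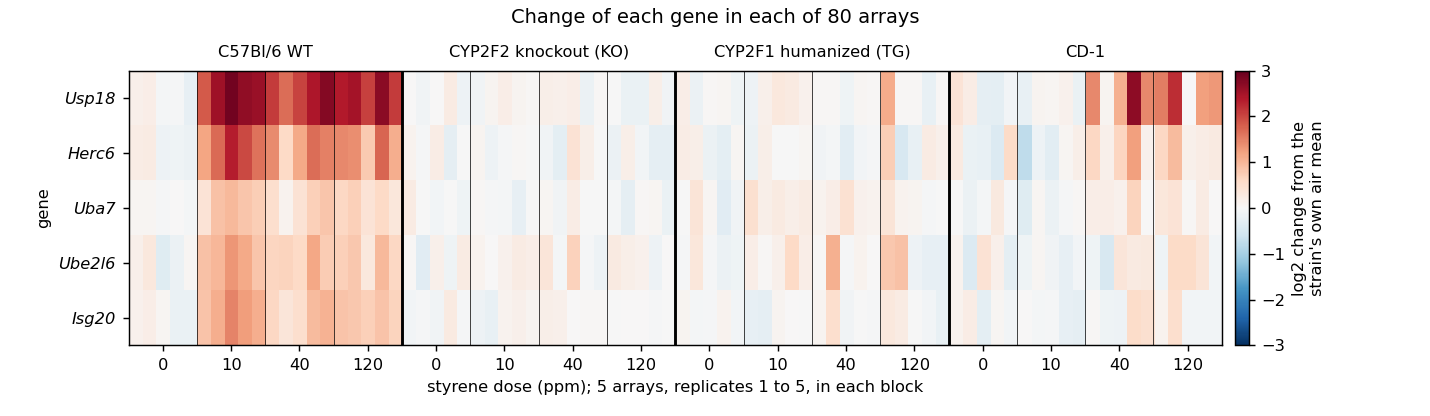
Log2 change of each gene (rows) in each of the 80 arrays (columns, by strain, dose in ppm and replicate) from the mean of the air arrays of its own strain, on a colour scale from -3 to 3. Exposed WT columns are raised for all 5 genes, KO columns stay near 0, and CD-1 replicate 4 at 40 ppm has the darkest Usp18 cell of its strain.

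The responses of the strains were then compared directly, as the dose change in one strain less the dose change in WT, in fits of the 40 arrays of a strain pair. In KO all 5 genes responded less than in WT at each dose, with 4.48%, 7.11% and 7.05% of all tested genes called lower at 10, 40 and 120 ppm. For Usp18 the difference was -2.45 (95% interval -2.89 to -2.0; limma adjusted p = 5.04e-10) at 10 ppm, -2.12 (adjusted p = 1.17e-08) at 40 ppm and -2.41 (adjusted p = 6.82e-10) at 120 ppm. For Herc6 it was -1.78 (adjusted p = 4.85e-06), -1.23 (adjusted p = 0.000918) and -1.41 (adjusted p = 0.000166). These values nearly equal the WT changes with the sign turned. For Isg20 the differences were -1.16, -0.62 and -0.79 and for Uba7 -0.83, -0.48 and -0.62. For Ube2l6 they were -0.89 (limma adjusted p = 0.00347), -0.60 (adjusted p = 0.0403) and -0.60 (adjusted p = 0.0448). The calls of Ube2l6 at 40 and 120 ppm were near the threshold and were lost when all 80 arrays entered 1 fit (adjusted p = 0.150 and 0.165) and with no filter on low signal (adjusted p = 0.0549 and 0.0598), and at 120 ppm also with array medians subtracted (adjusted p = 0.0548) or quantile normalization (adjusted p = 0.05). They were also lost without any 1 of KO air replicates 1, 3 and 5, WT air replicates 3 and 4, and replicate 4 of either strain at the dose itself (limma adjusted p up to 0.0914 at 40 ppm and 0.0995 at 120 ppm), and further single arrays ended the call at 1 of the doses: KO replicates 2 and 5 at 40 ppm, KO replicates 2, 3 and 5 and WT replicates 1, 2 and 5 at 120 ppm, and WT air replicate 5 for 120 ppm. Without KO air replicate 1 the call of Uba7 at 40 ppm was lost as well (adjusted p = 0.0509), which left 3 of 5 genes at that dose.

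In TG, Usp18, Herc6 and Isg20 responded less than in WT at each dose, where 2.65%, 3.78% and 3.87% of all tested genes were called lower. The differences at 10, 40 and 120 ppm were -2.36, -2.19 and -2.14 for Usp18, -1.77, -1.40 and -1.21 for Herc6 and -1.25, -0.61 and -0.73 for Isg20. The limma adjusted p was 8.93e-08 for Usp18 at 10 ppm and 0.0205 for Isg20 at 40 ppm, the weakest of these 9. Uba7 at -0.50, -0.32 and -0.42 (adjusted p = 0.0705, 0.233 and 0.0992) and Ube2l6 at -0.80, -0.53 and -0.48 (adjusted p = 0.0907, 0.248 and 0.305) did not pass. Uba7 passed at 10 ppm without TG replicate 1 (adjusted p = 0.0453) or WT replicate 1 (adjusted p = 0.0267) of that dose. Without TG air replicate 4 it passed at 10 ppm (-0.58, limma adjusted p = 0.0243) and at 120 ppm (-0.51, adjusted p = 0.0345), and it passed at both doses with array medians subtracted (adjusted p = 0.0333 and 0.0435) or quantile normalization (adjusted p = 0.0193 and 0.0299), and at 10 ppm with all 80 arrays in 1 fit (adjusted p = 0.0458). Between TG and KO, 0 of 5 genes differed in response at any dose, with differences of -0.17 to 0.33 and 0.0175%, 0% and 0% of all tested genes called.

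In CD-1, too, the response was compared with that of WT at each dose, and whether that difference changes with the dose was not tested. At 10 ppm all 5 genes responded less than in WT, where 1.53% of all tested genes were called lower: the differences were -2.54 for Usp18 (limma adjusted p = 0.000281), -1.97 for Herc6 (adjusted p = 0.000173), -1.27 for Isg20 (adjusted p = 8.66e-05), -1.14 for Ube2l6 (adjusted p = 0.00338) and -0.86 for Uba7 (adjusted p = 0.0021). At 40 ppm 0 of 5 were called, beside 0.789% of all tested genes called lower, and Usp18 differed by -0.86 with an interval of -1.74 to 0.02 (adjusted p = 0.314). Without CD-1 replicate 4 at 40 ppm, Isg20 was called at that dose, at -0.65 (adjusted p = 0.0401). At 120 ppm, where 2.69% were called lower, Isg20 alone passed, at -0.71 (interval -1.11 to -0.31; adjusted p = 0.0315), and Usp18 differed by -1.08 (interval -1.96 to -0.20; adjusted p = 0.154). The Isg20 call was lost with the replicate number as a block (adjusted p = 0.0539) and without any 1 of these arrays: CD-1 air replicates 1 and 2, CD-1 replicates 3, 4 and 5 at 120 ppm, WT air replicates 4 and 5, and WT replicates 1 and 4 at 120 ppm (adjusted p = 0.0535 to 0.0639). Between CD-1 and KO the Usp18 responses differed by 1.27 (interval 0.47 to 2.06; limma adjusted p = 0.637) at 40 ppm and 1.33 (interval 0.53 to 2.13; adjusted p = 0.489) at 120 ppm, and none of the 5 genes passed at any dose, where 0%, 0% and 0.0175% of all tested genes were called. Without CD-1 replicate 3 at 120 ppm, the array inside the air range, the Usp18 difference at 120 ppm passed, at 1.64 (adjusted p = 0.0321).

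**Figure D4:**
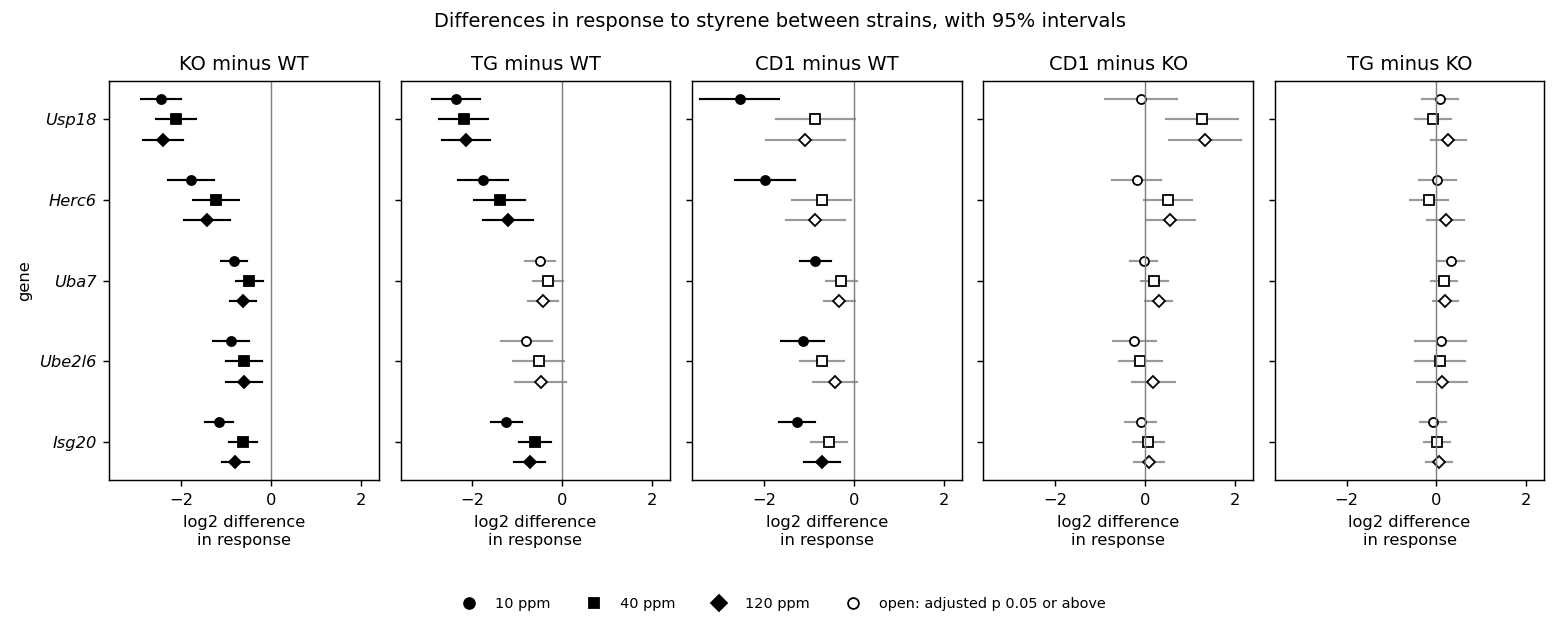
Difference in response between 2 strains (horizontal axis, log2: dose change in the first strain minus dose change in the second) for each gene (vertical axis) at 10, 40 and 120 ppm, with bars for the 95% interval and open symbols for an adjusted p of 0.05 or above. For KO minus WT all 15 values lie below 0, from -0.48 to -2.45, and for CD-1 minus WT the Usp18 value is -2.54 at 10 ppm and -0.86 at 40 ppm.

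Among the mice that inhaled air alone, the strains were compared gene by gene, but the deposited values as a whole were shifted between strains. The median difference over all tested genes was -0.365 for KO less WT, -0.476 for TG less WT, -0.227 for CD-1 less WT and -0.0998 for TG less KO. On those values Usp18, Herc6 and Ube2l6 were called lower in KO than in WT, and so were these 3 and Uba7 in TG, where 74.6% and 79.6% of all tested genes were called lower. Less the median over all genes, the KO differences were -0.18 for Usp18, -0.42 for Herc6 and -0.18 for Ube2l6, and the TG differences -0.14 for Usp18, -0.55 for Herc6, -0.64 for Ube2l6 and -0.18 for Uba7. In CD-1 Usp18 and Herc6 were called lower than in WT, where 48.6% of all tested genes were, at -0.75 and -0.39 less the median. Isg20 was called higher in CD-1, where 4.77% of all tested genes were, at 0.41 on the deposited values (limma adjusted p = 0.00251). Less the median its difference was 0.63, to which this p-value does not belong. Against KO, TG had lower Uba7 at -0.35 and lower Ube2l6 at -0.48 less the median, where 22.7% of all tested genes were called lower.

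A fit with each array's median subtracted, which called 13.7%, 35.7% and 35.8% of all tested genes for KO, TG and CD-1 against WT, kept some of these calls. Isg20 was then higher than in WT in each of the 3 strains, by 0.38 ± 0.11 in KO (SE; limma adjusted p = 0.0304), 0.59 ± 0.11 in TG (adjusted p = 0.000548) and 0.71 ± 0.11 in CD-1 (adjusted p = 6.44e-05). On the deposited values the Isg20 difference was -0.01 in KO and 0.07 in TG, so the sign in KO turned with the scaling. Usp18 was lower in CD-1 on both scales (-0.66 ± 0.13, adjusted p = 0.000702), as were Herc6 (-0.51 ± 0.15, adjusted p = 0.0131) and Ube2l6 (-0.60 ± 0.15, adjusted p = 0.00427) in TG. The KO calls of Usp18, Herc6 and Ube2l6, the TG calls of Usp18 and Uba7 and the CD-1 call of Herc6 were lost with medians subtracted. Against KO, where 25.7% of all tested genes were called, TG kept lower Uba7 (-0.33 ± 0.09, adjusted p = 0.0147) and Ube2l6 (-0.46 ± 0.15, adjusted p = 0.0323). Without TG air replicate 4 the counts on the deposited values stayed at 4 of 5 against WT and 2 of 5 against KO, and without KO air replicate 1 Uba7 was also called lower in KO than in WT (adjusted p = 0.0393).

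Ordered by the group mean above the median of the array, WT at 10 ppm was the highest of the 16 groups for each of the 5 genes. For Usp18 the 3 exposed WT groups, at 5.86, 5.69 and 5.57 for 10, 120 and 40 ppm, differed from each other by less than their SDs. Next came CD-1 at 40 ppm with 4.02, a gap of 1.55 that exceeded both SDs, and CD-1 at 120 ppm with 3.95. From TG at 120 ppm (3.39) and WT in air (3.35) down to KO at 120 ppm, 9 groups followed each other within their SDs. CD-1 in air (2.69) and at 10 ppm (2.65) were the lowest. For Herc6 the exposed WT groups stood at 2.23, 1.75 and 1.75 for 10, 120 and 40 ppm. The gap of 0.48 between 10 and 120 ppm exceeded both SDs, but the test between these doses did not pass. The next group, 1.05 below WT at 40 ppm, was CD-1 at 40 ppm (0.70). The lowest group was TG at 40 ppm (-0.23). For Uba7 and Ube2l6 as well, WT at 10 ppm (3.35 and 2.24) stood above the next group by more than both SDs, with gaps of 0.23 and 0.25. The test between these WT doses did not pass for either gene. TG in air (2.44 and 0.61) was the lowest for both. Isg20 ran from 5.25 in WT at 10 ppm to 4.10 in WT in air, the lowest of the 16 groups on this scale. That group lay 0.38 below KO in air, a gap that exceeded both SDs. On the deposited values WT in air averaged 8.67 and KO in air 8.66, so this lowest rank depended on the scaling. CD-1 at 40 ppm (4.95), CD-1 at 120 ppm (4.88), WT at 120 ppm (4.88), CD-1 in air (4.81) and WT at 40 ppm (4.81) followed each other within their SDs for Isg20, and CD-1 at 10 ppm stood at 4.69.

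The 5 genes varied together across the WT arrays. Over the 20 arrays of WT, Pearson's r between pairs of the 5 genes after subtraction of the array medians was 0.875 to 0.965, against 0.24 to 0.793 in CD-1, -0.204 to 0.542 in KO and -0.0448 to 0.701 in TG. The arrays of a strain share their dose groups, so these values are descriptions, and they were 0.526 to 0.918 over all 80 arrays. The genes most like Usp18 over the 80 arrays were Apol9a (r = 0.98), Oasl2 (0.975) and Oasl1 (0.969), the latter pair members of the oligoadenylate synthetase family. Those most like Herc6 were Ifit2 (0.951), Ddx60 (0.951) and the dynamin-like antiviral GTPase Mx1 (0.95). Uba7 was followed most closely by Phf11a (0.87), the immunoproteasome subunit Psmb8 (0.864) and Ddx58 (0.862), which encodes the RNA sensor RIG-I. The leading genes were less close for Ube2l6, with Rnf114 (0.833), Vmp1 (0.811) and Irf9 (0.807), and for Isg20, with Mitd1 (0.789), Tcirg1 (0.734) and Dtx3l (0.73). Of the 25 genes most like each, Usp18 and Herc6 shared 18, Herc6 and Uba7 shared 13, and Ube2l6 and Isg20 shared 2.

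The 3 probe sets of Uba7 moved the same way in WT but by different amounts. The second set changed by 0.95, 0.53 and 0.78 at 10, 40 and 120 ppm, with all exposed arrays above all air arrays, and the third by 0.36, 0.35 and 0.33, with an overlap at 10 ppm. In CD-1 they disagreed at the higher doses, where the second changed by 0.39 and 0.35 and the third by -0.10 and -0.05. One further row of the array is given as a description only. Gm9706, which RefSeq lists as a pseudogene, was read by probe sets whose design marks probes shared by several transcripts, and it was picked out after its values were seen. Whether these probes read Isg15 was not determined here. Gm9706 read 6.36, 5.90, 5.40, 5.44 and 5.68 in WT in air, 9.32, 9.80, 10.37, 10.00 and 9.72 at 10 ppm, 9.32, 8.75, 9.33, 9.76 and 9.94 at 40 ppm and 9.52, 9.55, 9.23, 9.93 and 9.32 at 120 ppm. These groups lay far apart, with changes of 4.09, 3.66 and 3.75 (limma adjusted p = 1.17e-09, 8.72e-09 and 2.78e-09), larger than that of Usp18 at each dose. In CD-1 it read 7.94, 6.54, 7.24, 9.35 and 8.28 at 40 ppm and 8.65, 9.03, 5.83, 7.53 and 7.74 at 120 ppm, changes of 2.25 (adjusted p = 0.352) and 2.14 (adjusted p = 0.266), and replicates 4 and 2 were again the highest. In KO and TG the changes were -0.26 to 0.17, and TG replicate 1 at 120 ppm, the array with the high Usp18, read 7.38. A second probe set of Gm9706 changed by 0.78, 0.50 and 0.41 in WT, with an overlap with air at 40 and 120 ppm. It averaged 5.93 in air in WT against 3.54 in the knockout, 3.52 in the humanized line and 3.59 in the outbred stock, where the first set averaged 5.76, 5.69, 5.77 and 5.62, so the sets disagreed in the size of the change and in how the strains compare.

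The other enzymes of the pathway were read as a list in WT. Of 8 tested enzymes known to act on ISG15 or listed with it beyond the 5, 2 rose at 10 ppm, 3 rose at 40 ppm, and 3 rose and 1 fell at 120 ppm, with medians of 0.16, 0.21 and 0.20. In either direction 12.6%, 26% and 23.9% of all tested genes were called at these doses. At 120 ppm the deubiquitinase gene Usp5 rose by 0.24 (limma adjusted p = 0.00482), Trim25, a ubiquitin ligase of RIG-I signalling, by 0.31 (adjusted p = 0.0199) and Skp2, part of a ubiquitin ligase that acts in the cell cycle, by 0.31 (adjusted p = 0.0398). The deubiquitinase gene Usp2 fell by 0.58 (adjusted p = 0.0149). Of 8 tested paralogues in ubiquitin conjugation and RNA decay, 2, 3 and 3 rose at 10, 40 and 120 ppm and 0 fell. At 120 ppm these were Aen, an exonuclease related to Isg20, at 0.57 (adjusted p = 0.000194), Ube2l3, the conjugating enzyme closest to Ube2l6, at 0.22 (adjusted p = 0.00969) and Herc3 at 0.37 (adjusted p = 0.0368).

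Upstream of these genes, of 9 tested interferon receptor and signalling genes 2, 3 and 3 rose and 0 fell, where 7.67%, 13.7% and 14.3% of all tested genes rose. Stat2 and Irf9, transcription factors of type I interferon signalling, rose by 1.27 (limma adjusted p = 3.46e-06) and 0.69 (adjusted p = 6.45e-05) at 120 ppm and by 1.61 and 0.91 at 10 ppm, and the interferon gamma receptor gene Ifngr1 rose by 0.28 (adjusted p = 0.00966) at 120 ppm. The type I interferon receptor subunit Ifnar2 changed by -0.08 and did not pass. The medians of this list were 0.05, 0.02 and 0.02. Of 10 interferon genes 6 were on the array and 0 could be tested, since their log2 signals of 2.35 to 3.90 lay below the median of the table in all arrays. Among 7 tested negative regulators of interferon signalling, 1 rose and 1 fell at 10 ppm and 3 rose and 1 fell at 40 and 120 ppm, where 12.6%, 26% and 23.9% of all tested genes were called at the 3 doses. At 120 ppm the cytokine signalling inhibitor Socs3 rose by 1.41 (adjusted p = 9.69e-06), the phosphatase genes Ptpn2 and Ptpn11 by 0.37 and 0.18, and Pias1, an inhibitor of STAT factors, fell by 0.29 (adjusted p = 0.00159).

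Among 13 tested genes whose proteins are reported to carry or bind ISG15, 9 rose at each dose, with 1 falling at 40 ppm, beside 7.67%, 13.7% and 14.3% of all tested genes called higher, and the median changes were 1.27, 0.87 and 0.98. Many are interferon-induced themselves, and at 120 ppm the largest changes were those of the antiviral GTPase gene Mx1 at 4.02 (limma adjusted p = 5.4e-09), Ifit1 at 3.07, Ifit3 at 2.45 and Mx2 at 1.90. In KO, TG and CD-1, 0 genes passed in any of these lists at any dose, where 0% to 0.0701% of all tested genes were called. In CD-1 the values of Mx1 were 1.58 and 1.43 at 40 and 120 ppm, of Ifit1 1.49 and 1.46, of Ifit3 1.01 and 1.11 and of Stat2 0.62 and 0.46.

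**Figure D5:**
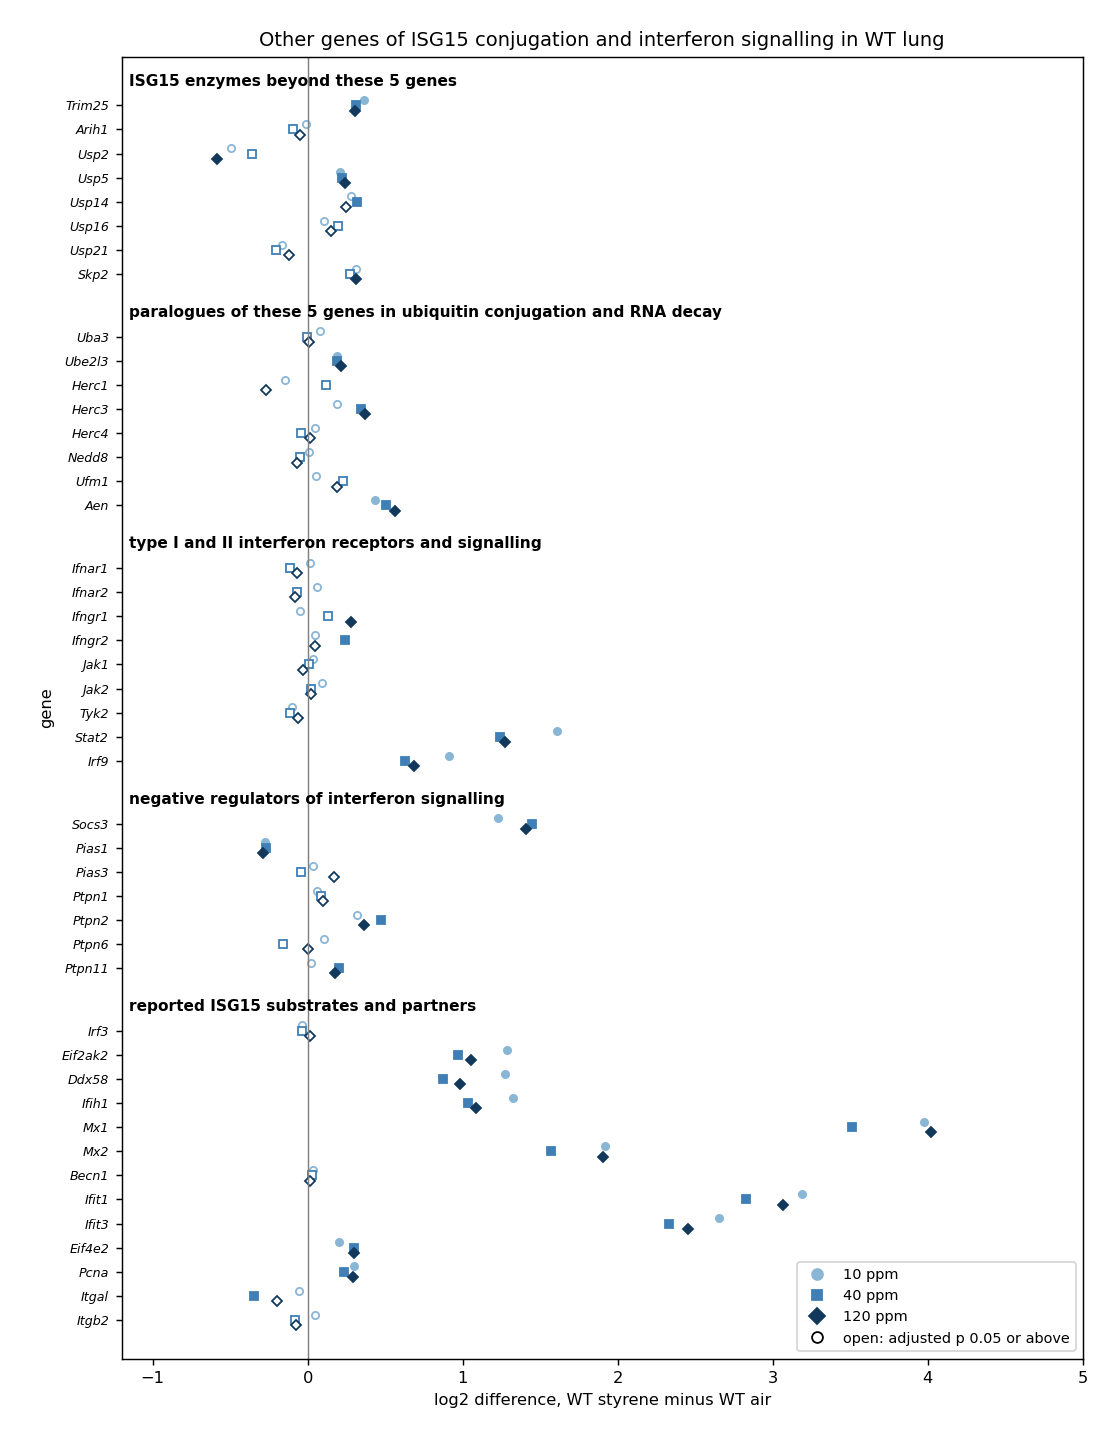
Log2 difference between styrene and air in WT (horizontal axis) for every tested gene of the pathway lists (rows, by list) at 10, 40 and 120 ppm, with filled symbols for an adjusted p under 0.05 and open symbols otherwise. Most points of the first 4 lists lie near 0, while Stat2 reaches 1.61 at 10 ppm and Mx1, among the reported substrates and partners, 4.02 at 120 ppm.

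Genes of airway epithelium moved in the same WT arrays. Of 4 tested club cell markers 3, 4 and 3 fell at 10, 40 and 120 ppm, where 4.9%, 12.4% and 9.65% of all tested genes were called lower, and their mean log2 signal was 13.21 to 13.29 in air, 12.84 to 13.07 at 10 ppm, 12.47 to 12.84 at 40 ppm and 12.63 to 12.91 at 120 ppm. Cyp2f2, one of the 4, changed by -0.42, -0.97 and -0.63. Of 3 ciliated cell markers 1, 2 and 2 fell, and of 4 macrophage markers 0, 1 and 1 fell. Of 3 monocyte markers 1 rose and 1 fell at 10 ppm, 2 fell at 40 ppm and 1 fell at 120 ppm, and their mean log2 signal was 7.65 to 8.04 in air, 8.05 to 8.32 at 10 ppm, 7.40 to 7.94 at 40 ppm and 7.79 to 8.09 at 120 ppm, so that it lay above air in every array at 10 ppm. Of 4 alveolar type 1 markers 0, 1 and 1 rose, where 7.67%, 13.7% and 14.3% of all tested genes were called higher. Their means were 11.92 to 12.04 in air and 12.06 to 12.16 at 120 ppm, which did not overlap. Of single tested genes, 6.07% at 10 ppm and 12.1% at 120 ppm had every exposed array above every air array. Of 4 endothelial markers 1 fell, at 40 ppm, where their mean was 9.77 to 10.06 against 9.95 to 10.22 in air. For neutrophils 0 of 4, for B cells 0 of 3 and for alveolar type 2 cells 0 of 2 passed at any dose, and of 6 T and NK cell markers 1 rose, at 120 ppm. Of 2 plasma cell markers Xbp1 rose, which many secretory cells express, and of the plasmacytoid dendritic cell markers only Tcf4 could be tested, which did not pass. In CD-1 the club cell mean was 13.02 to 13.19 in air, 12.68 to 13.11 at 40 ppm and 12.86 to 13.14 at 120 ppm. The part of these shifts in the changes of the 5 genes was not tested.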

How the data were processed

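RNA of whole lung from 80 mice, 5 in each of 16 groups of strain and styrene dose, was hybridised to Affymetrix 3' expression arrays, per the labels' protocols. The deposited table holds log2 signals of 45037 probe sets that the authors summarised with RMA (robust multi-array average, which corrects background, normalizes quantiles and summarises probes) and Partek software, per the submitters' processing notes. Software versions are not given in the sources used, which also do not say if the 4 strains were normalized together. Array data have no read depth, and the number of arrays limits the precision.

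Gene names came from the supplied platform annotation: 28898 probe sets had 1 gene symbol, 551 several and 15588 none, which gave 17097 genes, each read from its probe set with the highest mean. A gene was tested when its signal exceeded the median of the table in at least 5 of 80 arrays (11406 genes). limma 3.58.1 in R 4.3.3 (lmFit and eBayes) was fitted to the log2 values: dose against air and between doses within a strain (20 arrays), differences of those changes between strains (40 arrays) and strains in air (20 arrays). P-values were adjusted by Benjamini-Hochberg over all tested genes, and an adjusted p under 0.05 was called. All 80 arrays came from separate mice, per the labels. The code was tested on simulated data with known changes.

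The genes and the lists of pathway and marker genes were chosen with earlier results of these data known. Named genes were every gene of the set, up to 4 genes of each list with the lowest p in WT at 120 ppm, and the 3 genes with the highest correlation with each over the 80 arrays; Gm9706 was added after its values were seen. The alternatives tried were no filter on low signal, the mean of a gene's probe sets, array medians subtracted, quantile normalization over 80 arrays, eBayes with trend and robust settings, all 80 arrays in 1 fit, the replicate number as a block and leaving out each array in turn.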

Additional observations from a re-analysis of the deposited data

Results flagged for a closer look

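Among the 80 sets of 5 arrays (5 genes in 16 groups), 10 held an array whose gap to its nearest neighbour was large for the range of its group by Dixon's 95% criterion, where chance gives about 1 in 20. In TG at 40 ppm these were replicate 3, the lowest for Usp18 (7.19) and Herc6 (3.69) but the highest for Uba7 (6.95). Replicate 2 of that group was the highest for Ube2l6 (5.74) and Isg20 (9.26). The others in TG were Usp18 in replicate 1 at 120 ppm (8.42), Ube2l6 in air replicate 2 (5.02) and Ube2l6 in replicate 4 at 10 ppm (5.28). Outside TG they were Uba7 in CD-1 replicate 4 at 40 ppm (7.70) and Isg20 in KO air replicate 4 (8.93).

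The response to styrene differed between strains, by the limma test of the difference itself, in 30 of the 75 comparisons of a gene, a dose and a strain pair. All of these calls were against WT and share the WT arrays. In those comparisons 0.789% to 7.11% of all tested genes were called lower, and in those against KO 0% to 0.0175% were called. Against WT at 10, 40 and 120 ppm, the KO differences were -2.45, -2.12 and -2.41 for Usp18, -1.78, -1.23 and -1.41 for Herc6, -0.83, -0.48 and -0.62 for Uba7, -0.89, -0.60 and -0.60 for Ube2l6 and -1.16, -0.62 and -0.79 for Isg20. The TG differences from WT were -2.36, -2.19 and -2.14 for Usp18, -1.77, -1.40 and -1.21 for Herc6 and -1.25, -0.61 and -0.73 for Isg20. The CD-1 differences from WT at 10 ppm were -2.54 for Usp18, -1.97 for Herc6, -0.86 for Uba7, -1.14 for Ube2l6 and -1.27 for Isg20, and at 120 ppm -0.71 for Isg20.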

How the results depend on the processing

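Over the other settings, 418 of 420 values of a gene at a dose against air kept their call as higher, lower or not passing. So did all 600 values with 1 array left out. The same held for 417 of 420 and 598 of 600 values between exposed doses, for 512 of 525 and 1461 of 1500 response differences and for 122 of 140 and 199 of 200 values in air. Most values against air were those of KO, TG and CD-1, where at most 0.0701% of all tested genes were called. The kept calls there were thus calls of not passing. Taking the mean of a gene's probe sets changed the values of Uba7 alone, since the others of the 5 genes had 1 probe set each. Values that did not pass could still turn in sign. In KO, Uba7 at 120 ppm ran from -0.087 to 0.0038 over the settings. Herc6 at 10 ppm ran from -0.085 to 0.039 with 1 array left out. With all 80 arrays in 1 fit, 1 gene in place of 0 was called in CD-1 at 40 and 120 ppm against air and against 10 ppm (Usp18) and in WT at 40 against 10 ppm (Isg20), and the CD-1 against WT response at 120 ppm gave 2 calls in place of 1. In air, 1 gene in place of 3 was called for KO against WT with array medians subtracted or quantile normalization, where Isg20 turned from -0.01 to 0.38 and 0.37, and quantile normalization left 1 of 2 calls for TG against KO. Replicate numbers did not pair the samples: same-numbered arrays of different doses deviated together at a median r of -0.0165 for WT, 0.0469 for KO, 0.0125 for TG and 0.0279 for CD-1. With the replicate block, the CD-1 against WT response at 120 ppm gave 0 calls in place of 1 and no other call of the 5 genes changed. With 1 array left out, the calls ranged from 0 to 1 for WT at 40 against 10 ppm, for the CD-1 against WT responses at 40 and 120 ppm and for the CD-1 against KO response at 120 ppm, and from 3 to 5 for the KO against WT response at 40 ppm. For other differences of call the cause was not tested. Of all tested genes, the fit of 80 arrays called 44 in place of 1 in CD-1 at 40 ppm, 115 in place of 2 in CD-1 at 120 ppm and 119 in place of 8 in TG at 120 ppm. Herc6 exceeded the median signal of the table in 0 to 2 of 5 arrays of each KO group, each TG group and CD-1 at 0 and 10 ppm, so its differences there were read close to background.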
